A study of Mus musculus with 4 samples.

Results

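Retinoic acid signalling in the fetal mouse gonad was described through 10 genes, chosen by symbol: Aldh1a1 and Aldh1a2 for synthesis, Crabp1 and Crabp2 for binding in the cell, the receptor genes Rara, Rarb and Rarg, Cyp26a1 and Cyp26b1 for degradation, and the responsive gene Stra8. All 10 were found, each as a single row, among 20299 genes. RNA was measured at 15.5 days post coitum (dpc) by strand-specific sequencing of rRNA-depleted total RNA in 1 library for each of 4 groups: female germ cells, male germ cells, female gonadal somatic cells and male gonadal somatic cells. All fetuses came from CF1 females mated with TgOG2 males, whose transgene makes green fluorescent protein (GFP) under the Oct4 (Pou5f1) promoter. GFP-positive germ cells and GFP-negative somatic cells were sorted by flow cytometry, so the germ fraction is the part of the germ line in which this promoter fragment was active, and the somatic fraction is every other cell of the gonad. The number of animals behind a library is not stated in the labels used here.

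Retinoic acid is made from retinaldehyde by the ALDH1A dehydrogenases, held in the cytoplasm by the CRABP proteins, and read in the nucleus by RAR receptors paired with RXR receptors on direct repeats of a short hexamer. CYP26 enzymes hydroxylate and so inactivate it. In the mouse fetal ovary Stra8 is switched on in germ cells as they enter meiosis, whereas in the fetal testis CYP26B1 made by somatic cells lowers retinoic acid and germ cells arrest in mitosis. How far retinoic acid itself is required for Stra8 in the ovary has been debated.

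Levels are given as signal per 1000000 (SPM), the deposited value divided by the scaled library total. Depth was estimated at 17.5 to 24.9 M fragments (M for 1000000), and a floor of 3 fragments corresponded to 0.113 to 0.180 SPM. Germ cell markers summed to 3689 SPM in female and 4870 SPM in male germ cells, against 7.49 and 29.1 SPM in female and male somatic cells. The somatic libraries matched their labels too, with 5 pregranulosa markers summing to 999 SPM in female and 102 SPM in male somatic cells, and 5 Sertoli markers summing to 30.6 and 486 SPM. With 1 library a group, a sex difference within a fraction has no replicate check. Such ratios carry an exact conditional binomial 95% interval for counting error only, and a gene was called if it differed at least 4-fold with at least 5 SPM in the higher library. Germ against somatic cells was tested with limma, taking both sexes as the samples of a fraction. A gene's own spread is then the difference between the female and male libraries within each fraction. A sex difference therefore counts as error in this test. Limma draws this spread toward a trend over all genes, with 3.15 prior against 2 residual degrees of freedom, so p-values rest on both.

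The responsive gene Stra8 was concentrated in female germ cells, the degrading enzyme gene Cyp26b1 in male somatic cells, and the synthesis gene Aldh1a1 in somatic cells of both sexes. Aldh1a2, the other synthesis gene, had its higher levels in somatic cells too, by a size that was called in females and not in males. The binding protein genes did not exceed 19.0 SPM in any library, but both are short. Per kb of listed length their sum was above that of the receptor genes in female germ cells (17.2 and 8.83) and male germ cells (36.4 and 26.8). It was below that of the receptor genes in female somatic cells (12.6 and 22.9) and male somatic cells (9.89 and 23.4). The receptor genes differed most in male germ cells, where Rarg was high. In bulk libraries such as these, fewer cells of a type and less RNA per cell cannot be told apart.

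**Figure D1:**
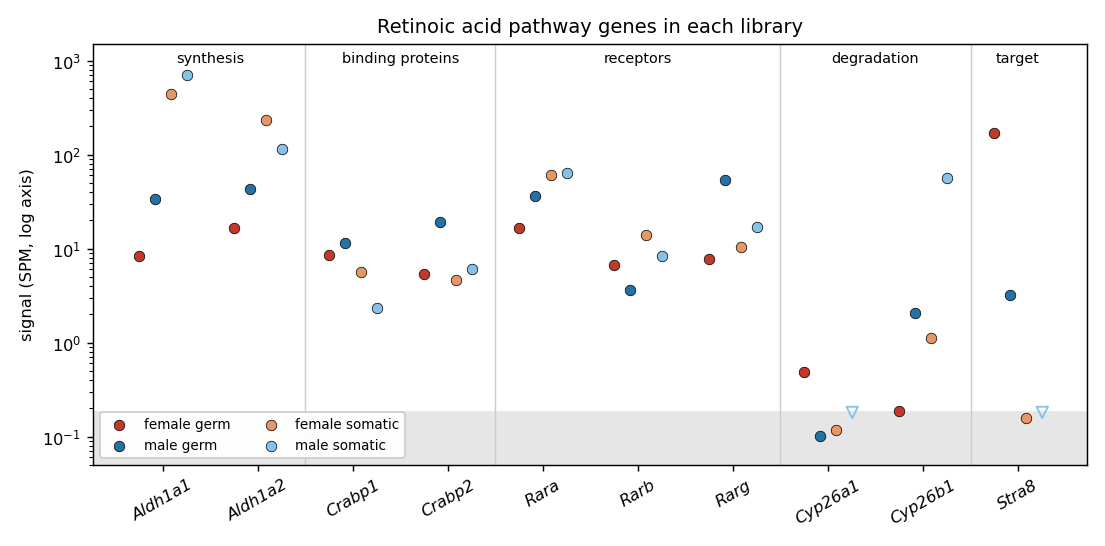
Signal of the 10 genes in each library, in SPM on a log axis, grouped by role; each point is 1 library, triangles mark a gene listed at 0, drawn at that library's floor of 3 fragments, and grey marks levels at or under the highest floor. Stra8 reached 171 SPM in female germ cells and Cyp26b1 56.6 SPM in male somatic cells, and each was far lower in the other libraries.

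Synthesis was described first. Aldh1a1, which encodes a cytosolic retinaldehyde dehydrogenase (chromosome 19, 20676471 to 20717952 in mm9, plus strand), stood at 8.36 SPM in female germ cells, 33.3 SPM in male germ cells, 444 SPM in female somatic cells and 698 SPM in male somatic cells. Both somatic libraries were above both germ libraries. In limma it was lower in germ cells, with a log2 difference of -5.01 ± 0.74 (SE, n = 2 libraries per fraction, adjusted p = 0.0354), the single member that passed. Of all 14148 genes tested, 5.56% passed as lower in germ cells and 2.5% as higher. The call was lost without the female somatic library (limma adjusted p = 0.0607) or without the male somatic library (adjusted p = 0.112), and with no filter on low genes (adjusted p = 0.0723), while the log2 difference stayed between -5.97 and -4.04 over the 4 leave-outs. Each such leave-out leaves 1 library in a fraction, which is then assumed to vary like the 2 of the other fraction. Reads shared with the near-identical neighbour Aldh1a7 cannot be assigned with certainty. Aldh1a7 itself stood at 0.325 SPM in female germ cells, 0.667 SPM in male germ cells, 36.7 SPM in female somatic cells and 26.6 SPM in male somatic cells.

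Aldh1a2, the main retinaldehyde dehydrogenase gene of the early embryo (chromosome 9, 71063595 to 71144050, plus strand), stood at 16.4 SPM in female germ cells, 43.5 SPM in male germ cells, 231 SPM in female somatic cells and 114 SPM in male somatic cells. The order of the sexes thus differed between the fractions. In germ cells it was 2.65-fold lower in females (2.33 to 3.04), and in somatic cells 2.02-fold higher in females (1.92 to 2.13). In the somatic fraction the 2 synthesis genes leaned to opposite sexes, since Aldh1a1 was 1.57-fold lower in females there (1.53 to 1.61). Aldh1a2 did not pass limma between germ and somatic cells, with a log2 difference of -2.58 ± 0.66 (adjusted p = 0.0733), but with sex as a term the limma adjusted p was 0.00942. With the male germ library left out the limma adjusted p was 0.0478, but the spread then comes from the 2 somatic libraries alone.

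Per kb of listed length, Aldh1a1 gave 217 SPM per kb in female somatic cells and 341 SPM per kb in male somatic cells, and Aldh1a2 gave 102 and 50.2 SPM per kb in female and male somatic cells. Aldh1a2 thus made up 31.9% of the summed level of the pair in female somatic cells and 12.8% in male somatic cells. In germ cells, at 11.3 SPM per kb for the pair in females and 35.4 in males, Aldh1a2 made up 63.8% and 54.0%. Markers of the coelomic epithelium, the surface layer of the gonad, summed to 539 SPM in female and 146 SPM in male somatic cells, with 5 of 5 detected in both. That sum was carried by Krt19 (279 and 33.3 SPM in female and male somatic cells), the 1 of the 5 called higher, and Upk3b (206 and 67.6 SPM). Upk1b was 1.40-fold higher in females (1.24 to 1.58), and neither Msln (ratio 1.12, 0.734 to 1.75) nor Lrrn4 (0.946, 0.814 to 1.10) differed beyond counting error. In female and male somatic cells, sums were also higher in females for pregranulosa (999 and 102 SPM), mesonephric duct (13.0 and 2.28 SPM) and endothelial markers (245 and 172 SPM). Sertoli, fetal Leydig, stroma, leukocyte and erythroid sums were higher in males. The part of any of these cell types in the Aldh1a2 difference was not tested.

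Somatic markers were also found in both germ libraries. Their summed signal was higher in male germ cells for every list but pregranulosa, while shares of the same-sex somatic sums varied in direction. Fetal Leydig markers summed to 11.5 SPM in female germ cells, where 3 of 5 were listed at 0 (Cyp17a1, Cyp11a1 and Insl3), and to 62.8 SPM in male germ cells, where none was. That was 12.7% of their sum in female somatic cells and 7.80% of that in male somatic cells. The female share rested on Star, at 10.9 SPM in female and 24.3 SPM in male germ cells. Hsd3b1 stood at 0.552 SPM in female and 8.42 SPM in male germ cells. Stroma markers, with none of 5 at 0 in any library, summed to 14.0 SPM in female and 99.9 SPM in male germ cells, which was 0.870% and 2.03% of the same-sex somatic sums. Sertoli markers, at 4.69 SPM in female germ cells (1 of 5 at 0) and 17.7 SPM in male germ cells (none at 0), made up 15.3% and 3.64% of those sums. Pregranulosa markers, at 27.8 SPM in female germ cells (none of 5 at 0) and 25.9 SPM in male germ cells (Foxl2 at 0), made up 2.79% and 25.5%. In female and male germ cells, erythroid markers summed to 52.1 and 192 SPM, and endothelial markers to 27.8 and 51.1 SPM. Coelomic epithelium markers summed to 5.10 and 9.72 SPM there, leukocyte markers to 2.15 and 4.03 SPM, and mesonephric duct markers to 3.30 and 12.7 SPM. Aldh1a1 in germ cells stood at 1.88% of its same-sex somatic level in females and 4.78% in males. Aldh1a2 stood at 7.10% in females and 38.1% in males. How much of the germ cell signal of either gene came from somatic cells in the sort was not tested.

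The binding proteins followed. Crabp1 (chromosome 9, 54612614 to 54620916, plus strand) stood at 8.46 SPM in female germ cells, 11.4 SPM in male germ cells, 5.61 SPM in female somatic cells and 2.33 SPM in male somatic cells. Both germ libraries were above both somatic libraries, although limma did not pass the difference (log2 1.31 ± 0.74, adjusted p = 0.292). By size it was called in males alone, 4.91-fold higher in male germ than in male somatic cells (3.49 to 7.0), against 1.51-fold in females (1.18 to 1.91). The difference between these 2 ratios was not tested.

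Crabp2, whose product hands retinoic acid to the receptors (chromosome 3, 87752614 to 87757294, plus strand), stood at 5.32 SPM in female germ cells, 19.0 SPM in male germ cells, 4.59 SPM in female somatic cells and 6.11 SPM in male somatic cells. Male germ cells stood apart from the other 3 libraries, which lay close together. The gene was 3.57-fold lower in female than in male germ cells (2.85 to 4.53), short of the 4-fold size rule. Limma gave a log2 difference between germ and somatic cells of 0.88 ± 0.85 (adjusted p = 0.528). The summed level of the pair was 17.2 and 36.4 SPM per kb in female and male germ cells, and 12.6 and 9.89 SPM per kb in female and male somatic cells.

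Of the receptor genes, Rara (chromosome 11, 98799009 to 98836256, plus strand) stood at 16.7 SPM in female germ cells, 36.5 SPM in male germ cells, 61.0 SPM in female somatic cells and 62.9 SPM in male somatic cells. Its somatic levels did not differ between the sexes beyond counting error, with a ratio of female to male of 0.969 (0.896 to 1.05). In germ cells it was 2.19-fold lower in females (1.91 to 2.51). The log2 difference between germ and somatic cells, -1.31 ± 0.56, did not pass limma (adjusted p = 0.190), and gave an adjusted p of 0.0401 with the male germ library left out, where the 2 close somatic libraries alone give the spread.

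Rarb, a receptor gene that is itself a classic target of retinoic acid (chromosome 14, 17263353 to 17407724, minus strand), was low throughout, at 6.76 SPM in female germ cells, 3.60 SPM in male germ cells, 13.9 SPM in female somatic cells and 8.26 SPM in male somatic cells. It was the only receptor gene higher in females in both fractions, by 1.88-fold in germ cells (1.42 to 2.49) and 1.68-fold in somatic cells (1.38 to 2.07). Neither difference reached 4-fold, and limma gave 0.77 ± 0.97 on the log2 scale for the sex difference shared by both fractions (adjusted p = 0.980).

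Rarg (chromosome 15, 102065370 to 102087914, minus strand) stood at 7.66 SPM in female germ cells, 53.9 SPM in male germ cells, 10.4 SPM in female somatic cells and 16.8 SPM in male somatic cells. It was 7.03-fold lower in female than in male germ cells (5.87 to 8.49). Together with Stra8, which was higher, it made up the members called between germ cells of the sexes, where 14% of the 11766 genes at 5 SPM were called lower in females and 10% higher. Aldh1a1 fell just short, at 3.99-fold lower in females (3.33 to 4.79), and was past 4-fold with each of the 3 other scalings tried.

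The makeup of the receptor family therefore differed between libraries. Per kb, Rarg held 26.9% of the summed RAR level in female germ cells, 62.3% in male germ cells, 14.1% in female somatic cells and 22.3% in male somatic cells. Rara led in the other 3 libraries, with 45.6% in female germ cells, 64.2% in female somatic cells and 65.0% in male somatic cells. Rarb held 27.5% in female germ cells and 4.83% in male germ cells. The family sum was lowest in female germ cells, the library with the most Stra8, at 8.83 SPM per kb, against 26.8 in male germ cells, 22.9 in female somatic cells and 23.4 in male somatic cells.

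**Figure D2:**
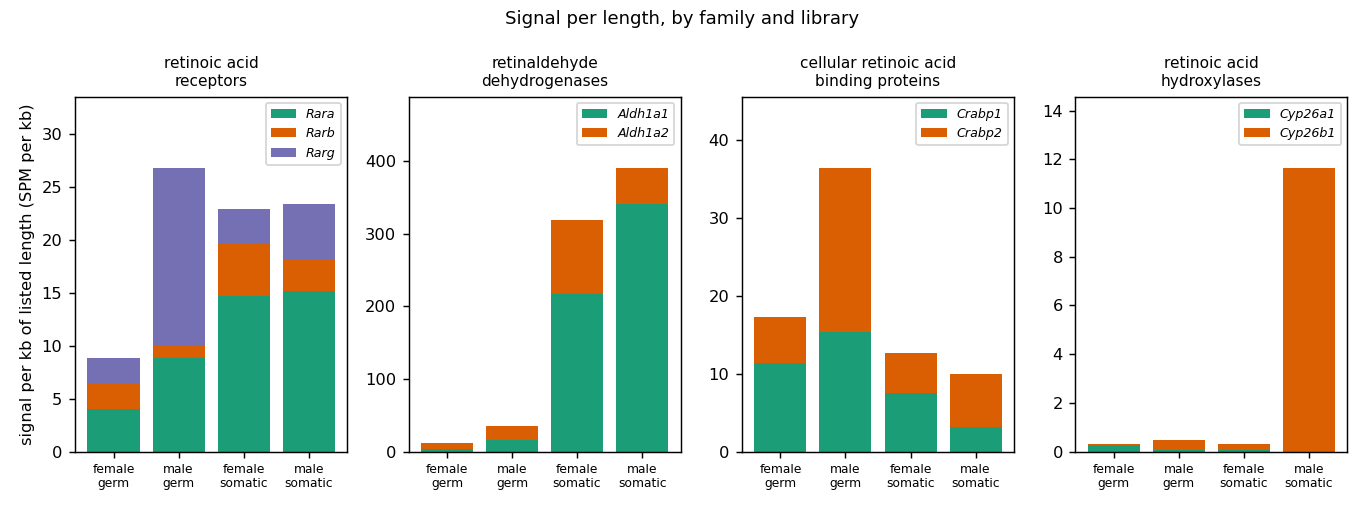
Signal per kb of listed gene length (SPM per kb), stacked by gene within each family; each bar is 1 library and each panel has its own axis from 0. Rarg takes 62.3% of the receptor sum in male germ cells, and Cyp26b1 gives all the hydroxylase signal in male somatic cells.

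The degrading enzymes were next. Cyp26b1 (chromosome 6, 84521407 to 84543902, minus strand) stood at 0.187 SPM in female germ cells, 2.07 SPM in male germ cells, 1.12 SPM in female somatic cells and 56.6 SPM in male somatic cells. Male somatic cells stood far above the rest, and the female germ level rested on 3 fragments. The gene was 50.6-fold lower in female than in male somatic cells (34.8 to 76.6). It was the one member called between somatic cells of the sexes, where 3% of 11835 genes were called lower in females and 3.17% higher. In germ cells it was 11.03-fold lower in females with a wide interval (3.73 to 57.5), below the 5 SPM minimum in both libraries. Male germ cells held 3.65% of the male somatic level, beside shares of 2.03% for the sum of stroma markers, 3.64% for Sertoli, 7.80% for fetal Leydig, 25.5% for pregranulosa and 29.7% for endothelial markers. The part of somatic cells in the male germ signal was not tested.

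Cyp26a1, the paralog that clears retinoic acid from the early embryo (chromosome 19, 37772297 to 37776026, plus strand), was at or near the floor everywhere. It stood at 0.483 SPM in female germ cells on 8 fragments, 0.101 SPM in male germ cells on 3 fragments and 0.117 SPM in female somatic cells on 3 fragments, and was listed at 0 in male somatic cells. The ratio of female to male germ cells was 4.80 with an interval from 1.02 to 24.9. Another paralog, Cyp26c1, was at most 0.229 SPM, in male germ cells. In male somatic cells, Cyp26b1 thus held all the signal of the family.

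The somatic cell types that could carry Cyp26b1 also differed between the sexes. All 5 Sertoli markers were detected in both somatic libraries, summing to 30.6 SPM in female and 486 SPM in male somatic cells. Fetal Leydig markers, 5 of 5 detected in both, summed to 90.5 and 805 SPM, and stroma markers, 5 of 5 in both, to 1605 and 4914 SPM. The Sertoli gene Amh stood at 0.379 SPM in female and 273 SPM in male somatic cells. Which of these cells held Cyp26b1 was not tested. Over both fractions limma did not pass its sex difference, a log2 value of -3.52 ± 0.99 (adjusted p = 0.215).

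Stra8 (chromosome 6, 34870959 to 34889342, plus strand), whose product opens the meiotic program, stood at 171 SPM in female germ cells, 3.19 SPM in male germ cells and 0.156 SPM in female somatic cells, and was listed at 0 in male somatic cells. The female germ library was far above the rest, and the male germ library, with 85 fragments, was above both somatic libraries. The gene was 53.5-fold higher in female than in male germ cells (43.1 to 67.2). Against female somatic cells it was 1096-fold higher in female germ cells, with an interval from 417 to 3923 because the somatic library held 4 fragments. Male germ cells were at least 17.7-fold higher than male somatic cells, taking a floor of 3 fragments in that library.

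The trace of Stra8 in female somatic cells, 0.0912% of the female germ level, lay beside a share of 0.203% for the summed germ cell markers in the same library. Between germ and somatic cells limma gave a log2 difference of 5.46 ± 1.84 for Stra8, which did not pass (adjusted p = 0.120), and the 2 germ libraries lay far apart. With 1 germ library left out the limma adjusted p was 0.0487 (without the female one) or 0.0385 (without the male one), but the spread then comes from the 2 somatic libraries alone, both near 0. With sex as a term it passed limma (adjusted p = 0.000621), as did Aldh1a1, Aldh1a2 and Cyp26b1 (4.25e-06, 0.00942 and 0.0401). In that fit 7.73% of all genes passed as higher and 13.8% as lower in germ cells. That fit left 1 residual degree of freedom against 25.7 prior ones, so its p-values rest mostly on the spread of other genes.

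For the sex difference shared by both fractions, 0 of the 9 members tested passed limma, and 2 (Stra8 and Cyp26b1) had an unadjusted p under 0.05. Over all genes 0% passed as higher and 0.134% as lower in females (308 and 607 genes at an unadjusted p under 0.05). Cyp26a1, which did not reach 1 SPM in any library, was the member left out of both limma fits.

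**Figure D3:**
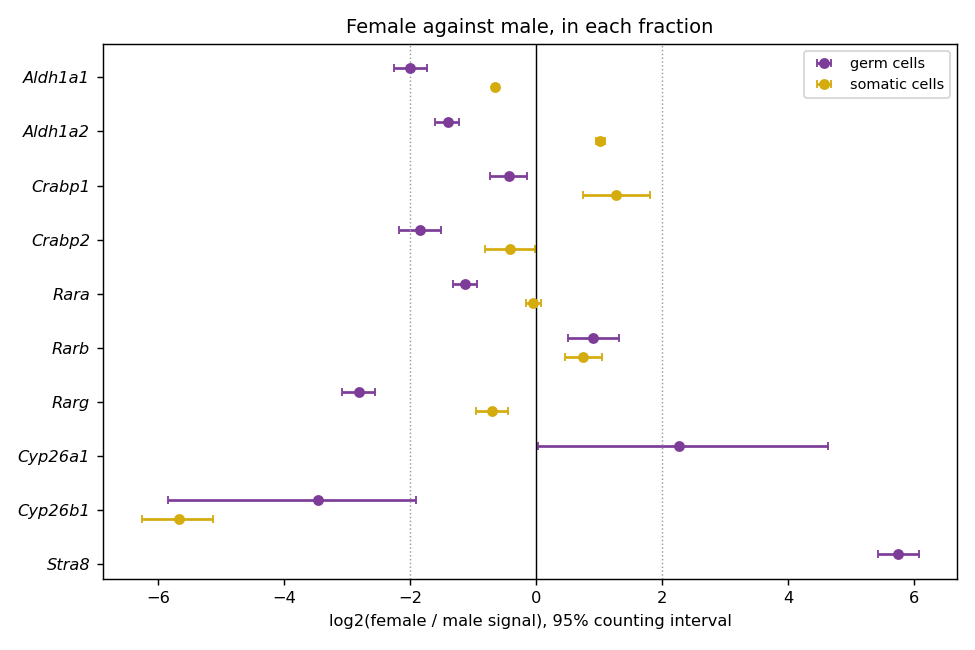
Log2 ratio of female to male signal for each gene, in germ cells and in somatic cells, with bars for 95% counting intervals and dotted lines at 4-fold; 1 library is set against 1, and genes under the floor have no point. Stra8 lies far to the right in germ cells, Cyp26b1 far to the left in somatic cells, and Aldh1a2 and Crabp1 change side between the fractions.

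**Figure D4:**
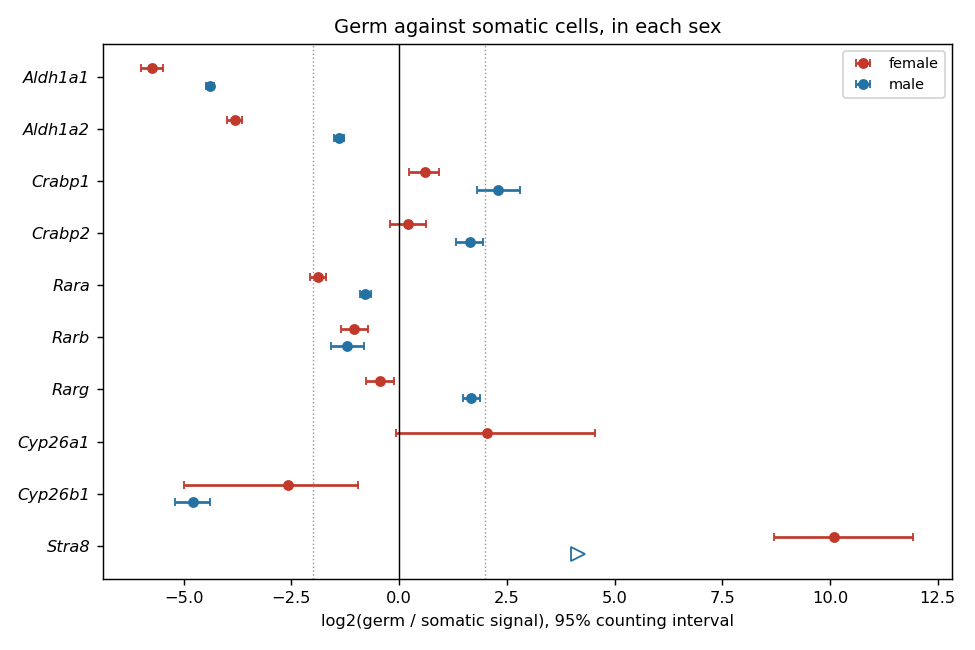
Log2 ratio of germ to somatic signal for each gene, in females and in males, with bars for 95% counting intervals and dotted lines at 4-fold; the open triangle is a lower bound where the somatic library was listed at 0. Both synthesis genes lie to the left in both sexes, and Rarg changes side between the sexes.

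Within each sex, 3 members were called between germ and somatic cells. In females Stra8 was higher in germ cells, and Aldh1a1 (53.1-fold, 44.9 to 63.1) and Aldh1a2 (14.1-fold, 12.5 to 16.0) were lower, where 12.5% of 12245 genes were called higher and 23.6% lower. In males Crabp1 was higher in germ cells, and Aldh1a1 (20.9-fold, 19.6 to 22.4) and Cyp26b1 (27.4-fold, 20.9 to 36.7) were lower, where 12.4% of 12636 genes were called higher and 18.4% lower. Stra8 in male germ cells, at 3.19 SPM, was under the 5 SPM minimum of this rule. Rarg was 1.36-fold lower in germ cells in females (1.09 to 1.69) and 3.20-fold higher in males (2.81 to 3.65).

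Promoter sequences are shown for the responsive genes, because the receptors bind direct repeats of a hexamer, and these genes had unlike levels. The windows run from 250 bases before to 50 bases after a RefSeq transcript start on GRCm38.p6, a later build than the mm9 of the expression files, and 9 of the 10 genes had at least 1 window. Both strands were searched for AGGTCA, its form GGGTCA, its form AGTTCA or its form GGTTCA, and for direct repeats of any of them at spacings of 1, 2 or 5 bases. Capitals mark the hexamers, on either strand, and may be part of a repeat. The windows lie at chr6:34920698-34920997 on the plus strand for Stra8, chr14:16575427-16575726 on the minus strand for Rarb and chr19:37697558-37697857 on the plus strand for Cyp26a1.
Stra8: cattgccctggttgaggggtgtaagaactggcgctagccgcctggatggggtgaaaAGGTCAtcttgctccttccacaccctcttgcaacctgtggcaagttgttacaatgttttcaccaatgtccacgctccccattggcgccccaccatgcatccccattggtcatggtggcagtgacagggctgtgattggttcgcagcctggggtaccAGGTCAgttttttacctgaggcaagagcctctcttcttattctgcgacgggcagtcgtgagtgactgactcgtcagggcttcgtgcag
Rarb: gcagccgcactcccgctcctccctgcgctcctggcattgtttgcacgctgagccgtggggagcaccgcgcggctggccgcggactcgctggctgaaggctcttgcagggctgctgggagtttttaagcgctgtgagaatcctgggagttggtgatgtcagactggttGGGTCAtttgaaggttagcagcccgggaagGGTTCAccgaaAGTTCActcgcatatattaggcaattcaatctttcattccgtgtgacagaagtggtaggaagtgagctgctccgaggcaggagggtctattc
Cyp26a1: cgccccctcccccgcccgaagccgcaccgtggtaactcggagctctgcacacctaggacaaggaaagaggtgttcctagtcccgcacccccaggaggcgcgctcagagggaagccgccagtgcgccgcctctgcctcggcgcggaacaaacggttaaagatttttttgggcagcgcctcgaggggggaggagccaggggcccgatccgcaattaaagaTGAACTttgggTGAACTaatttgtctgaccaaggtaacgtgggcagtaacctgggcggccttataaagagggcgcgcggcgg

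The Stra8 window held 2 hexamers, both AGGTCA, which began 194 and 38 bases before the start and formed no direct repeat at the spacings searched. In Rarb a repeat with a spacing of 5 began 53 bases before the start, and in Cyp26a1 one lay on the opposite strand, with its leftmost base 32 bases before the start. Such a repeat was found in 32 of 32851 promoter windows (0.0974%), and a single hexamer in 43.7%. Of the 14 windows of the members, 7 held a hexamer and 2 a direct repeat. A direct repeat at any of the spacings searched was found in 193 of the 32851 windows (0.588%). The 2 genes with the repeat differed in level: Rarb lay between 3.60 and 13.9 SPM over the 4 libraries, whereas Cyp26a1 did not exceed 0.483 SPM. The Cyp26b1 window (chr6:84593761-84594060) held none of the hexamers.

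Genes with the profile most like that of Stra8 were sought over the 4 libraries, by the distance between centred log2(SPM + 0.5) profiles, among 13255 genes at 5 SPM or more in a library. The nearest was 1700013H16Rik on the X chromosome at a distance of 0.53, with 232 SPM in female germ cells, 5.60 SPM in male germ cells, 0.282 SPM in female somatic cells and 0 in male somatic cells. It was followed by Gm14692 (0.61) and Gm1140 (0.62), whose rows cover nearly the same stretch of the X chromosome, Hist1h2aa (0.92) and 4930528F23Rik (0.92). For Cyp26b1 the nearest were Vgll3 (0.24), which stood at 0 in female germ cells, 1.49 SPM in male germ cells, 0.652 SPM in female somatic cells and 34.9 SPM in male somatic cells, then Prokr2 (0.33), Plcxd3 (0.42), Pdlim3 (0.59) and Ptgds (0.62). With 4 libraries many genes can share a profile.

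The wider pathway was described by 5 lists. Of 18 genes of retinol uptake, storage and oxidation, 11 could be tested by limma. Of these, 4 passed as lower in germ cells and 0 as higher, where 5.56% of all genes passed as lower and 2.5% as higher. At an unadjusted limma p under 0.05, 7 were lower and 0 higher, where 2648 and 1795 of all 14148 genes were. With sex as a term 7 passed as lower, where 13.8% of all genes did. The list's median log2 difference was -3.43, against -0.11 over all genes tested. The genes were Dhrs3, which returns retinaldehyde to retinol (-5.46 ± 0.60, limma adjusted p = 0.0328), Stra6, the retinol-uptake receptor gene (-4.36 ± 0.68), Rdh11 (-3.67 ± 0.57) and Aldh1a7 (-5.01 ± 0.68). Without the female or without the male somatic library this list lost its calls. The number passing over all genes also changed with the library left out. Over the leave-outs the log2 differences were -5.90 to -5.01 for Dhrs3 and -4.67 to -4.04 for Stra6. They were -3.84 to -3.50 for Rdh11 and -5.27 to -4.76 for Aldh1a7. Dhrs3 stood at 3.47 SPM in female germ cells, 2.55 SPM in male germ cells, 208 SPM in female somatic cells and 112 SPM in male somatic cells.

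Rdh10, which makes the retinaldehyde that the ALDH1A enzymes use, was spread over all libraries, at 48.0 SPM in female germ cells, 15.6 SPM in male germ cells, 38.4 SPM in female somatic cells and 36.0 SPM in male somatic cells. It was 3.08-fold higher in female than in male germ cells (2.73 to 3.48), and its somatic levels did not differ between the sexes beyond counting error (ratio 1.07, 0.962 to 1.18). Aldh1a3, which encodes another retinaldehyde dehydrogenase, stood at 22.6 SPM in female and 8.20 SPM in male somatic cells, 2.76-fold higher in females (2.29 to 3.36). Adh1, an alcohol dehydrogenase gene, was called in the other direction, at 11.03 SPM in female and 62.9 SPM in male somatic cells. Bcmo1, which cleaves beta-carotene to retinaldehyde, was called lower in female than in male germ cells, at 0.148 and 5.05 SPM, and was at or under the floor in both somatic libraries.

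Among 10 receptor partners and cofactors, 0 passed limma between germ and somatic cells (1 lower at an unadjusted p under 0.05), and 1 was lower with sex as a term (Nrip1). The shares over all genes were 2.5% higher and 5.56% lower, or 7.73% and 13.8% with sex as a term. At an unadjusted limma p under 0.05, 1795 of all 14148 genes were higher and 2648 lower. The RXR gene Rxra stood at 42.9 SPM in female germ cells, 134 SPM in male germ cells, 212 SPM in female somatic cells and 194 SPM in male somatic cells. Its paralog Rxrb had another order, at 49.6 SPM in female germ cells, 31.1 SPM in male germ cells, 45.4 SPM in female somatic cells and 35.9 SPM in male somatic cells. Among coactivator genes in germ cells, Ncoa1 was 5.60-fold higher in females (4.98 to 6.34) and Ncoa3 3.19-fold higher (3.03 to 3.35). Fabp5, whose product carries retinoic acid to PPAR delta, was called lower in females, at 1.34 SPM in female and 9.83 SPM in male germ cells.

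Of 11 retinoic acid responsive genes, 9 could be tested, and 4 passed limma as lower in germ cells and 0 as higher (5 lower and 1 higher at an unadjusted p under 0.05), with a median of -3.50 against -0.11 over all genes. Of all genes 5.56% passed as lower and 2.5% as higher. At an unadjusted limma p under 0.05, 2648 of all 14148 genes were lower and 1795 higher. With sex as a term 5 passed as lower and 2 as higher (Rec8 and Cdx1), where 13.8% and 7.73% of all genes did. Without sex as a term, the 4 calls were lost when the female or the male somatic library was left out. The number passing over all genes also changed with the library left out. Those 4 were Dhrs3 and Stra6, which also stand on the retinol list, with Tgm2 (-5.34 ± 0.98, adjusted p = 0.0435) and Meis1 (-4.87 ± 0.54, adjusted p = 0.0328). Between germ cells of the sexes, Cdx1 and Msx1 were called higher in females and Tgm2 lower, among 5 at the 5 SPM level, where 10% of all genes were called higher and 14% lower. Msx1, a homeobox gene, stood at 7.78 SPM in female germ cells, 0.192 SPM in male germ cells and 7.13 SPM in female somatic cells, and was listed at 0 in male somatic cells.

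Rec8, a meiotic cohesin gene that responds to retinoic acid, had a different pattern from Stra8. It stood at 79.8 SPM in female germ cells, 24.7 SPM in male germ cells, 48.5 SPM in female somatic cells and 0.384 SPM in male somatic cells. Female somatic cells thus held 48.5 SPM of Rec8 but 0.156 SPM of Stra8, and their germ cell markers summed to 7.49 SPM. Rec8 was 126-fold higher in female than in male somatic cells (61.6 to 367), and 1.64-fold higher in female germ than in female somatic cells (1.52 to 1.78).

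Of 9 measured genes of meiotic entry, 6 were called higher in female than in male germ cells and none lower, where 10% of all genes at that level were called higher and 14% lower. Gm1564 (Meioc), whose product stabilises meiotic transcripts, was 22.5-fold higher (21.1 to 24.2), Smc1b, another cohesin gene, 24.6-fold (23.6 to 25.8) and the recombinase gene Dmc1 24.5-fold (22.04 to 27.4), each less than the 53.5-fold of Stra8. Rec8 at 3.23-fold (2.94 to 3.55) and Ythdc2, an RNA helicase gene that acts with Meioc, at 3.46-fold (3.29 to 3.63) were short of the size rule. Zglp1 went the other way, at 11.4 SPM in female and 27.8 SPM in male germ cells. In limma 3 of the 9 passed as higher in germ cells (Spo11, Sycp1 and Zglp1) and 0 as lower, where 2.5% of all genes passed as higher. At an unadjusted limma p under 0.05, 8 were higher and 0 lower, where 1795 and 2648 of all 14148 genes were. With sex as a term 9 of 9 passed as higher, where 7.73% of all genes did. Without that term, the number passing changed with the library left out, as it did over all genes. Over the leave-outs the log2 differences were 4.69 to 6.96 for Spo11, 6.08 to 9.52 for Sycp1 and 3.24 to 4.49 for Zglp1.

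Of 10 regulators of Stra8 or Cyp26b1, 7 reached the 5 SPM level in germ cells, and 1 was called higher in females (Fgf9) and 4 lower (Nanos2, Dmrt1, Nodal and Lefty1), where 10% and 14% of all genes were. Fgf9, which encodes a growth factor, stood at 10.9 SPM in female and 2.18 SPM in male germ cells, 5.02-fold higher in females (3.73 to 6.88). Nanos2, which represses Stra8 in male germ cells, was listed at 0 in female germ cells, against 60.6 SPM in male ones. Dmrt1, another regulator of Stra8, stood at 8.53 and 36.3 SPM in female and male germ cells. Among somatic regulators of Cyp26b1, Nr5a1 stood at 278 SPM in female and 321 SPM in male somatic cells, a ratio of 0.866 (0.836 to 0.898). Sox9 stood at 7.76 and 18.3 SPM in female and male somatic cells, 2.36-fold lower in females. Foxl2 stood at 8.97 SPM in female somatic cells and at 0.177 SPM, on 3 fragments, in male somatic cells. In limma, of the 7 regulators tested, Dazl passed as higher in germ cells (8.25 ± 0.50, adjusted p = 0.0328) and Nr5a1 as lower (-5.44 ± 0.44, adjusted p = 0.0328), with Sox9 also lower when sex was a term. Of all genes 2.5% passed as higher and 5.56% as lower, or 7.73% and 13.8% with sex as a term. Nr5a1 did not pass without the female somatic library (limma adjusted p = 0.0712) or the male one (adjusted p = 0.0975).

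**Figure D5:**
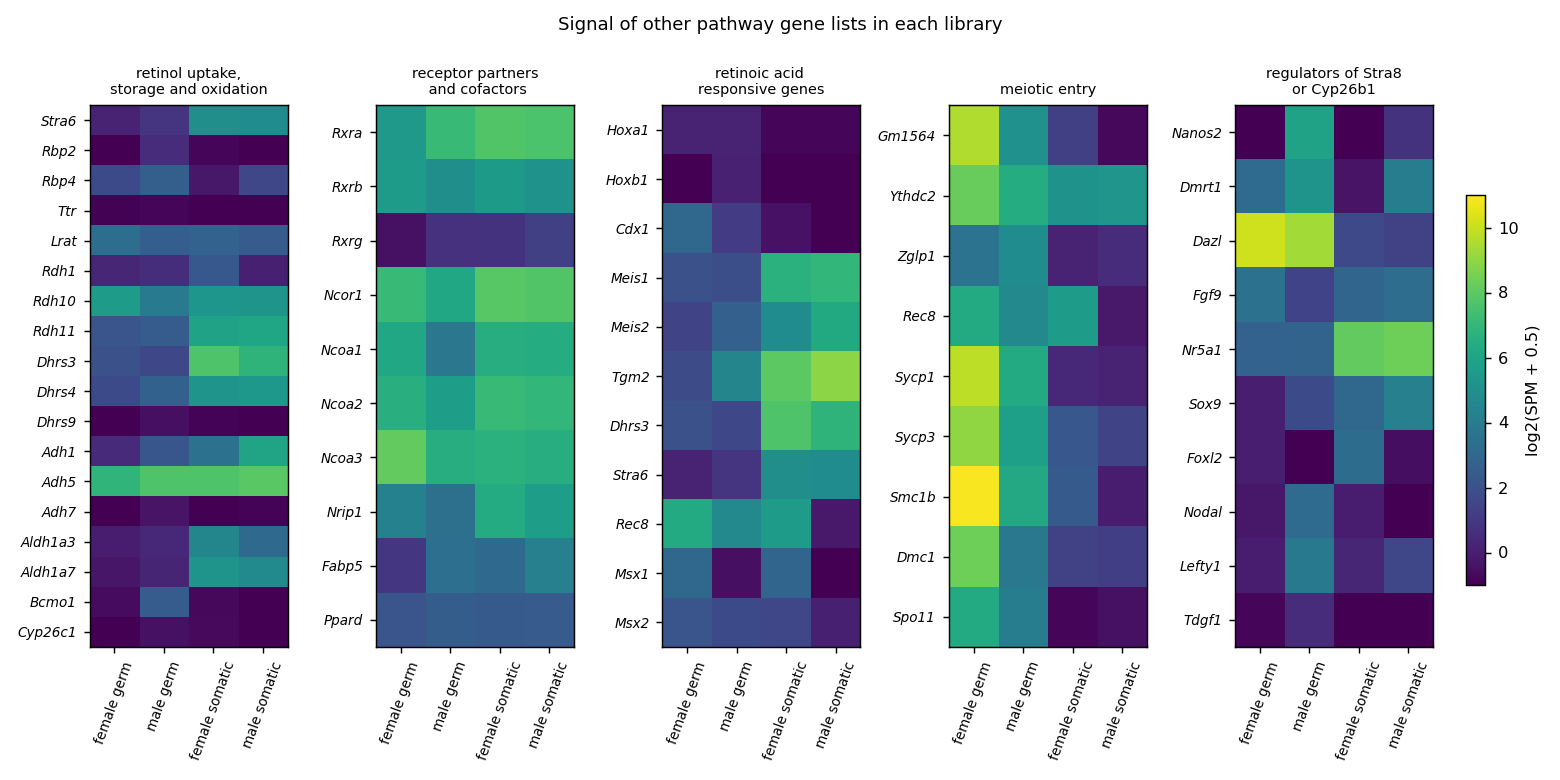
Level of each gene of the 5 wider lists in each library, as log2(SPM + 0.5), with female before male and germ before somatic libraries; each cell is 1 library. Dhrs3 and Stra6 are high in both somatic columns, most meiotic entry genes are highest in female germ cells, and Rec8 is also high in female somatic cells.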

How the data were processed

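Per the submitters' processing notes, CASAVA 1.9, TopHat 1.2.0, edgeR and the mm9 build were used, in no stated role; which program counted reads, with which annotation and whether by strand, is not given here. The deposited gene values are whole-number signal, named counts per the file headers, but clustered on a spacing of 6.07, 4.105, 4.105 and 6.11 (female germ, male germ, female somatic, male somatic), so they were treated as scaled and rounded by the authors, and 1 spacing as 1 fragment. Between 43.1% and 54.3% of values up to 60 were whole multiples after rounding, against 15% to 23.3% for evenly spread values, so fragment numbers are estimates, and intervals and floors cover counting error only. Gene length is the deposited column.

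Exact repeats (74 of 20373 rows) were removed. Trimmed-mean-of-M (TMM) factors scaled the library totals, by 0.956, 1.07, 1.03 and 0.945. Genes reaching 1 SPM in at least 2 libraries entered limma 3.58.1 (R 4.3.3, trend on, threshold 0.05 after Benjamini-Hochberg adjustment) as log2(SPM + 0.5), a scale that understates the fold of low genes. The fit was run on simulated data with changes between germ and somatic cells but no sex difference. How it performs where the sexes differ, as here, was not tested. Nothing in the labels says that libraries came from separate animals. No other gene row overlapped a member except that of Cdkn2d, listed over 103 Mb of chromosome 9 on the other strand. Other scalings, pseudocounts, filters, size rules and leaving out each library were tried. The planned test already assumed such a signal. All members, every list gene by symbol and the 5 nearest profiles of Stra8 and Cyp26b1 could be named by rule; Gm4969 of the meiotic list was not analysed here, and 2 planned genes of the retinol, responsive and partner lists are not reported here and were left out of their counts. Members and lists were chosen with earlier results of these data known.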

Additional observations from a re-analysis of the deposited data

Results flagged for a closer look

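Aldh1a2 and Crabp1 differed between the sexes in opposite directions in the 2 fractions, each with a counting interval that did not cover 1. For Aldh1a2 the ratio of female to male was 0.377 in germ cells and 2.02 in somatic cells. For Crabp1 it was 0.739 in germ cells and 2.41 in somatic cells. Rarg differed between germ and somatic cells in opposite directions in the sexes, with a ratio of germ to somatic of 0.737 in females and 3.20 in males. With 1 library in each group, none of these differences between ratios was tested.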

How the results depend on the processing

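The labels give no replicate numbers; the one pairing the design holds, germ with somatic cells of the same sex, was fitted with sex as a term. Between germ and somatic cells, limma called 354 genes higher and 786 lower in germ cells, with 0 members higher and 1 lower. With no filter the counts over all genes were 0 and 0 (4625 genes at an unadjusted p under 0.05), and 0 members were lower. With sex as a term they were 1094 and 1955, with 1 member higher and 3 lower. Leaving out each library in turn gave 37 to 1670 genes higher and 21 to 1927 lower, with 0 to 1 members higher and 0 to 3 lower; the lone library of a fraction is then assumed to vary like the 2 of the other. The log2 value of Rarg turned to -0.75 without the male germ library (range -0.75 to 1.98).

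For the sex difference over both fractions, limma called 0 genes higher and 19 lower in females (0 members under every alternative that leaves a test). The lower count was 0 with upper-quartile scaling, 0 with library totals, 7 with median-of-ratios scaling and 9 with no filter. A pseudocount of 0.1 gave 31 higher and 95 lower, and a filter in 1 library 24 higher and 69 lower. Without a library this fit has no test, and over those 4 fits the log2 values of Aldh1a2 (-1.38 to 1.01) and Crabp1 (-0.42 to 1.11) changed sign.

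By size, 1 member was lower in female than in male germ cells. This became 3 with upper-quartile scaling, 2 with library totals, 2 with median-of-ratios scaling, 5 at 2-fold, 0 at 8-fold and 2 at a level of 1 SPM. Between somatic cells of the sexes, 2 members were higher in females at 2-fold (0 at 4-fold). Between germ and somatic cells of females, 4 were lower at 2-fold (2 at 4-fold). In males 4 were lower at 2-fold (2 at 4-fold), and the 1 higher became 3 at 2-fold, 0 at 8-fold, 2 at a level of 1 SPM and 0 at 20 SPM. The shares of all genes called under these other rules are not given here. These counts therefore show only how the members move with the rule.

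Scaling moved all ratios by up to 0.32 on the log2 scale (male germ against male somatic cells, upper quartile), and turned 1 member ratio, Rara between somatic cells of the sexes (1.06 with library totals). Of the values for single genes and lists, 470 kept their direction and call or stayed within their error. Another 55 moved, 1 reversed direction, 37 lost and 7 gained a call. The causes of these changes were not tested. With 1 library a group, differences within a fraction or a sex have no replicate spread, and genes near 3 fragments, such as Cyp26a1, were not resolved at this depth.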
